A study of Mus musculus with 8 samples.

Results

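The genes described are 44 listed genes of glucose uptake, glycolysis, pyruvate and lactate handling, the pentose phosphate pathway and the citrate cycle. A gene was included when at least 1 row of the deposited value table carried its symbol as the only platform symbol. This held for 41 of the 44 listed genes, with 97 probe sets, out of 18193 genes measured in all. Gpi1, Eno1 and G6pdx had no such row and were not analysed here. The cells were NIH3T3, a long-established line of fibroblasts from mouse embryos. They had been transduced with a pair of fluorescent reporters, mVenus-p27K- for p27 and mCherry-hCdt1(30/120) for Cdt1. All cells had first been kept without serum and then given 10% serum for 5 h. The 4 G0 arrays hold RNA of mVenus-positive, mCherry-positive cells, and the 4 G1 arrays hold RNA of mVenus-negative, mCherry-positive cells, sorted by flow cytometry. The mVenus reporter marks p27, an inhibitor of cyclin-dependent kinases that is abundant in quiescence, and the mCherry reporter marks G0 and G1. The labels do not say whether the transduced cells were a clone or a pool, or whether each replicate was a culture of its own. The p-values therefore describe only the spread among these 8 samples, part or all of which may be technical.

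Glycolysis turns glucose into pyruvate in the cytosol. Pyruvate is then reduced to lactate or enters the mitochondrial citrate cycle, while the pentose phosphate pathway branches off early to give NADPH and ribose phosphate. Growing fibroblasts draw on all of these routes for nucleotides, lipids and ATP, and many glycolytic genes are known targets of the hypoxia-inducible factor HIF-1 and of Myc.

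Expression is given as the deposited log2 value of a probe set relative to its own median over the 8 arrays, so differences between groups can be read and absolute levels cannot. Whether a gene, or a fibroblast marker, was expressed at all can therefore not be read from these values. A difference in RNA per cell cannot be told apart from a difference in the share of cells that carry a transcript. Among the 8 arrays, those titled G0 replicate 3 and G1 replicate 4 stood apart. Their bacterial spike-in controls, RNAs added before labelling, lay at medians of −7.12 and −6.40, against −0.14 to 0.62 on the other arrays, and the beta-actin control's 3′ minus 5′ value, a measure of RNA or labelling quality, was −0.78 on both against −0.12 to 0.19. The label protocol instead puts replicate 4 of both groups in a second labelling batch, so labels and spike-ins name different G0 arrays, and which of them is right could not be settled. The labelled batch was a covariate in the test below (limma, called the labelled-batch fit), and a fit that used the presence of spike-ins as the batch is given beside it (the spike-in batch). Each group holds 1 array without spike-ins, so the differences are the same in both fits and only their errors differ.

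No gene of these metabolic routes passed the test between cells sorted as G1 and cells sorted as G0, and most differences were small. Of the 41 genes, each read by 1 representative probe set, 0 were higher and 0 were lower in G1 at an adjusted p under 0.05 in limma, where 0.5% of all genes were higher and 0.022% lower. The smallest adjusted p was 0.511, for Idh1. With the spike-in batch as covariate 0 passed as well, against 1.01% of all genes, and the smallest adjusted p was 0.235, again for Idh1. At an unadjusted p under 0.05, 0 members were higher (all genes, 4.33%) and 1, Idh1, was lower (2.44%, against 3.74% of all genes). In the fit with the spike-in batch, 1, Fh1, was higher (all genes, 6.04%) and 4, Eno2, Pdk1, Pgd and Idh1, were lower (9.76%, against 6.37% of all genes). The number of arrays limits what could pass. Over all genes 95 passed in the labelled-batch fit, but 28 did without G0 replicate 1, 67 without G0 replicate 3 and 0 when any other single array was left out (limma).

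The absence of calls came with errors that were narrower at the median than over all genes, though less so in glucose uptake and glycolysis. The median standard error (SE) of the members was 0.27 log2 units, against 0.42 over all genes. For 24 of 41 members (58.5%) the 95% confidence interval of the difference lay within 1 log2 unit of 0, whereas this held for 32.4% of all genes. The 15 genes of glucose uptake and glycolysis had a median SE of 0.39, and 46.7% of their intervals lay within 1 log2 unit of 0. A difference of 1 log2 unit or more was found in 3 members (7.32%), Slc2a3, Eno2 and Ogdh, against 14.8% of all genes. The members' median difference, G1 minus G0, was −0.02, with 19 positive and 22 negative values, and the median of all genes was −0.06. For comparison, 3 of 7 measured proliferation markers passed as higher in G1 in the labelled-batch fit, among them Mki67 with a log2 difference of 3.82 (SE 0.25, limma, adjusted p = 0.00889).

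**Figure D1:**
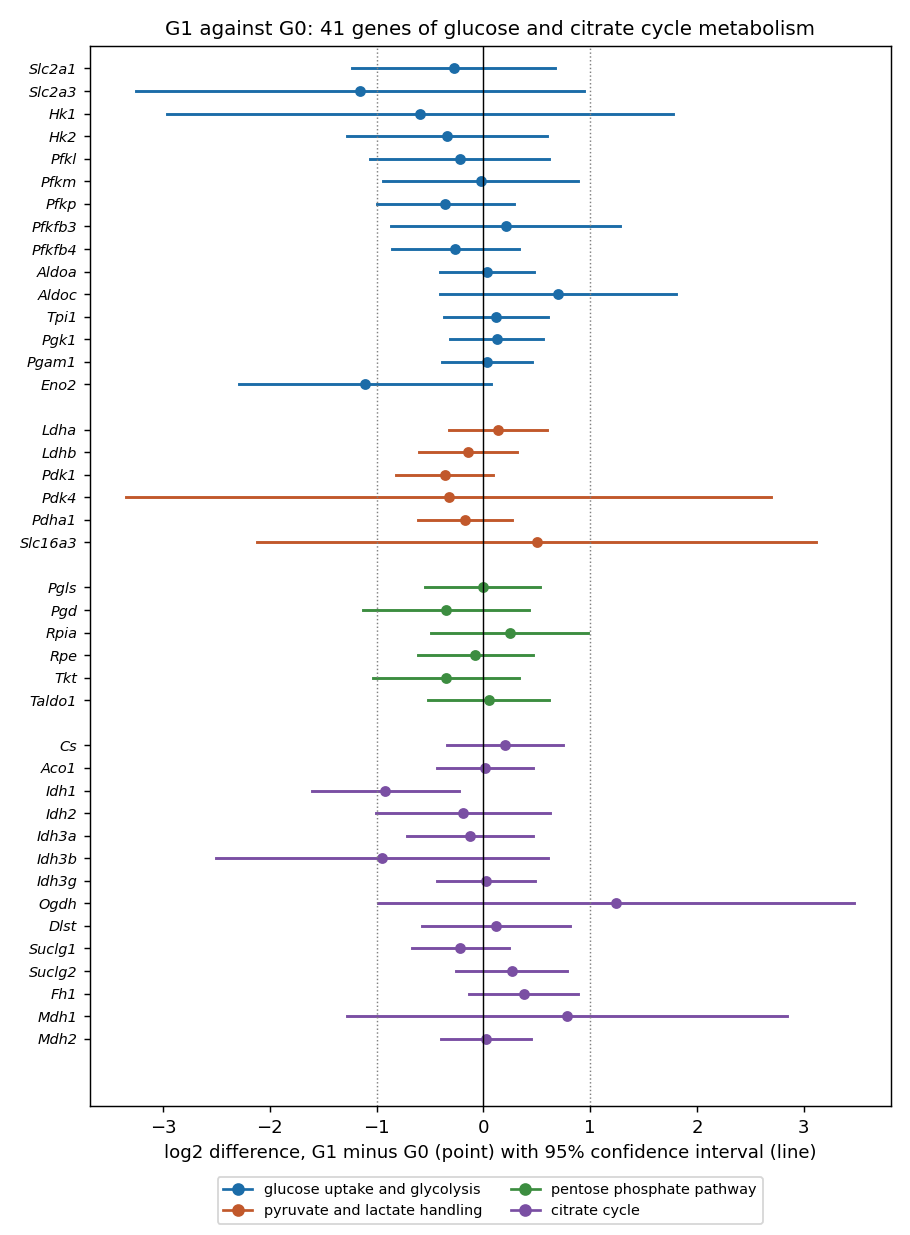
Log2 difference between G1 and G0 (x axis, G1 minus G0) for each of the 41 genes, with the 95% confidence interval of the labelled-batch fit, coloured by sub-pathway; dotted lines mark 1 log2 unit in either direction. Of the 41 intervals, 24 lie inside the dotted lines, and that of Idh1 is the interval that does not reach 0.

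By sub-pathway the medians also stayed close to 0. The median difference was −0.22 for the 15 genes of glucose uptake and glycolysis (6 positive, 9 negative), −0.16 for the 6 genes of pyruvate and lactate handling (2 positive, 4 negative), −0.04 for the 6 pentose phosphate genes (2 positive, 4 negative) and 0.03 for the 14 citrate cycle genes (9 positive, 5 negative). The per-array medians of the groups overlapped in each sub-pathway. In glycolysis the G0 arrays spanned −0.06 to 0.06 and the G1 arrays −0.03 to 0.16. The 0.16 was read on G1 replicate 4, an array without spike-ins, and the other G1 arrays read −0.03, −0.01 and −0.01. Those lay inside the G0 span, so the per-array medians did not fall below it in G1, although the median of the gene differences was negative. In the citrate cycle the spans were −0.13 to 0.03 for G0 and −0.03 to 0.05 for G1. For pyruvate and lactate handling the G0 arrays spanned −0.06 to 0.30 and the G1 arrays −0.15 to 0.05, and for the pentose phosphate pathway −0.02 to 0.05 and −0.12 to 0.21. Pfkl supplies the glycolytic median, which was −0.07 in labelling batch 1 alone.

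Glucose enters fibroblasts mainly through Slc2a1 (GLUT1). Its values were −0.36, 0.60, −0.23 and 0.23 on G0 replicates 1 to 4 and −0.91, 0.47, 0.23 and −0.66 on G1 replicates 1 to 4. The groups overlapped widely, with a difference of −0.28 (95% confidence interval −1.23 to 0.67). All 3 Slc2a1 probe sets lay between −0.30 and −0.23. Slc2a3 (GLUT3), a transporter of higher affinity, had the lowest difference of the sub-pathway, −1.15 (SE 0.90, limma, adjusted p = 0.871). Its G0 values were −1.63, 2.62, −0.20 and 1.44 and its G1 values 0.20, −1.75, −1.04 and 0.22, so arrays within a group differed by more than the groups did. With a single array left out the difference ran from −1.83 (without G0 replicate 1) to −0.32 (without G0 replicate 2). Its 4 probe sets ranged from −1.15 to 0.34 and give no common direction.

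The hexokinases trap glucose as glucose 6-phosphate. Hk2, the inducible form, differed by −0.34 (95% confidence interval −1.28 to 0.60), with G0 values of −0.03, 0.85, −0.39 and 0.19 and G1 values of −0.64, 0.64, 0.03 and −0.77. Hk1 differed by −0.59 (SE 1.01). Phosphofructokinase commits sugar to glycolysis, and its subunit genes Pfkl, Pfkm and Pfkp differed by −0.22, −0.02 and −0.35 (SE 0.36, 0.39 and 0.27). Pfkfb3 and Pfkfb4 encode bifunctional enzymes that set fructose 2,6-bisphosphate, the activator of phosphofructokinase. They differed by 0.21 and −0.26 (SE 0.46 and 0.25).

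For 4 probe sets of these upper enzymes, the 2 arrays without spike-ins lay far above the other 6. The Hk1 probe set 1420901_a_at read 2.98 on G0 replicate 3 and 2.75 on G1 replicate 4, and between −1.21 and 0.21 on the other 6 arrays. Pfkl 1450269_a_at read 2.65 and 2.64, against −0.38 to 0.45 elsewhere, and Pfkl 1439148_a_at read 2.30 and 2.38, against −0.38 to 0.10. Pfkp 1430634_a_at read 3.06 and 2.72, against −1.30 to 0.46. Of the same genes' other 4 probe sets, 3 did not lie above on both arrays. Hk1 1437974_a_at read 0.03 and −0.33 on these arrays, Pfkp 1416069_at read −0.06 and −0.50, and Pfkl 1453541_at read −0.66 and −0.88. The remaining probe set, Pfkp 1437759_at, was higher there by a smaller step, at 0.79 and 1.28 against −0.43 to 0.59. Of the 97 member probe sets, 13.4% differed by 1 log2 unit or more between the mean of these 2 arrays and the mean of the other 6, 10 of them higher and 3 lower, against 27.4% of all probe sets. On the 6 arrays with spike-ins alone Hk1 differed by −0.71 and Pfkl by −0.22 between G1 and G0. What produced the shift on these arrays was not tested.

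**Figure D2:**
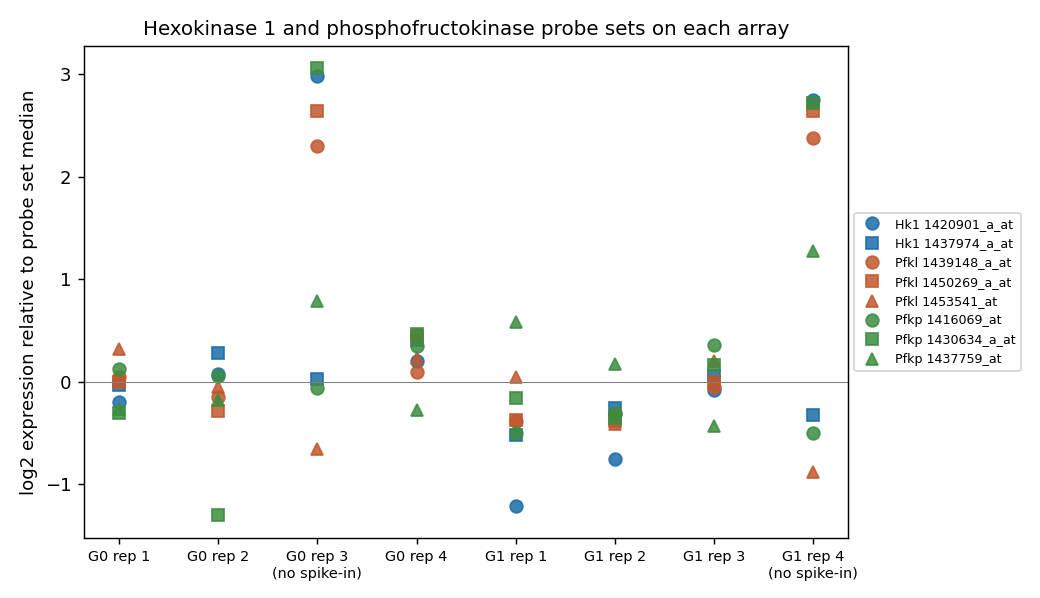
Log2 expression relative to the probe set median (y axis) of the 8 Hk1, Pfkl and Pfkp probe sets on each of the 8 arrays (x axis), with colour for the gene and symbol for the probe set. On G0 replicate 3 and G1 replicate 4, 4 probe sets sit between 2.30 and 3.06, while the other probe sets of these genes sit between −0.88 and 1.28.

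The enzymes from aldolase down to phosphoglycerate mutase had narrow intervals around 0. Aldoa (aldolase A, which splits the hexose bisphosphate) differed by 0.03 (95% confidence interval −0.40 to 0.47), Tpi1 (triose phosphate isomerase) by 0.12 (−0.37 to 0.61), Pgk1 (phosphoglycerate kinase, an ATP-forming step) by 0.12 (−0.31 to 0.56) and Pgam1 (phosphoglycerate mutase) by 0.03 (−0.39 to 0.45). The Pgam1 values were 0.00, 0.17, −0.02 and −0.03 in G0 and 0.00, 0.12, −0.01 and 0.16 in G1, within a band common to both groups. Pgk1 read −0.16, 0.00, 0.08 and −0.06 in G0 and 0.13, 0.00, −0.04 and 0.27 in G1. The 5 Aldoa probe sets all carry the suffix _x_at, which marks possible cross-hybridisation, so related sequences may be read with it.

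The tissue-restricted isoforms had larger and less certain differences. Aldoc (aldolase C, the brain form) had the highest difference of the sub-pathway, 0.70 (SE 0.47, limma, adjusted p = 0.835), from 0.63, −0.92, −0.46 and −0.28 in G0 to 0.28, 0.35, 1.58 and −0.46 in G1. It was 0.35 without G1 replicate 3 and 0.41 without G0 replicate 2. Its other probe set differed by −0.17, so the direction depends on the probe set. Eno2 (gamma enolase, the neuronal form) read 1.12, −0.52, 1.49 and 0.55 in G0 and −0.50, −1.31, −0.16 and 0.16 in G1. Among the G0 arrays replicate 2 lay within the G1 range. The difference was −1.11 (SE 0.50), a 2.16-fold lower mean in G1, and did not pass (limma, adjusted p = 0.717, or 0.386 with the spike-in batch).

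In pyruvate and lactate handling, Ldha, the lactate dehydrogenase subunit that favours lactate formation, had a positive difference and Ldhb, the subunit typical of oxidative tissue, a negative one, and neither passed. Ldha read −0.24, 0.04, 0.07 and −0.08 in G0 and 0.12, −0.05, −0.04 and 0.31 in G1, with a difference of 0.14 (95% confidence interval −0.32 to 0.59). The representative Ldhb probe set differed by −0.15 (−0.61 to 0.31), and all 4 Ldhb probe sets were negative, from −0.38 to −0.15. On 1 of them, 1434499_a_at, the groups did not overlap. It read 0.36, 0.21, 0.20 and 0.10 in G0 and −0.10, −0.23, −0.21 and −0.11 in G1 (difference −0.38, SE 0.18, limma, adjusted p = 0.736, or 0.352 with the spike-in batch). Over all probe sets tested, 2.9% had every G1 value below every G0 value and 3.16% every G1 value above. Among the 97 member probe sets 3 (3.09%) had the former and 0 the latter.

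Pdk1, a kinase that shuts off pyruvate dehydrogenase and so keeps pyruvate from the citrate cycle, was another of those 3. Its representative probe set read 0.33, 0.02, 0.21 and 0.19 in G0 and −0.02, −0.36, −0.13 and −0.17 in G1. The groups did not overlap, by a narrow gap between G0 replicate 2 and G1 replicate 1. The difference was −0.36 (SE 0.19), or 1.28-fold lower in G1 (limma, adjusted p = 0.776, or 0.430 with the spike-in batch). All 4 Pdk1 probe sets were negative, from −0.46 to −0.27. The representative probe set differed by −0.36 within each labelling batch, by −0.38 between the 2 arrays without spike-ins and by −0.35 on the 6 arrays with spike-ins. At the level of genes, 2 of 41 members (4.88%) had non-overlapping groups with G1 lower, Pdk1 and Idh1, against 3.28% of all genes. None had non-overlapping groups with G1 higher, against 3.79% of all genes.

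Pdk4, the starvation-induced kinase of the same family, could not be read. Its G0 arrays spanned −1.19 to 2.73 and its G1 arrays −1.12 to 3.19, and its difference had a 95% confidence interval of −3.34 to 2.69. Pdha1, the catalytic subunit of pyruvate dehydrogenase, differed by −0.17 (−0.61 to 0.27). Slc16a3 (MCT4), which exports lactate, had the highest difference of the group, 0.50, with an interval of −2.12 to 3.11. It read 1.78, −3.18, 0.46 and −0.91 in G0 and −1.28, −0.41, 1.43 and 0.41 in G1, and the difference was −0.47 without G0 replicate 2.

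**Figure D3:**
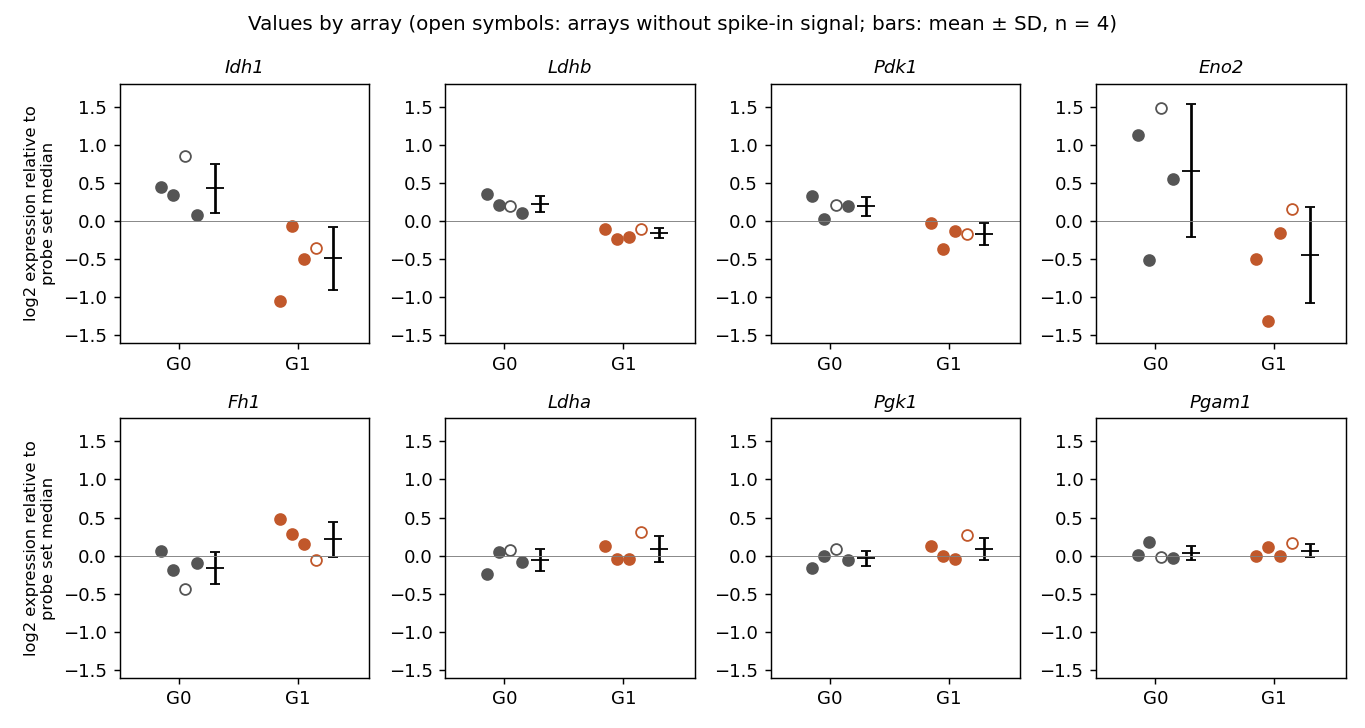
Log2 expression relative to the probe set median (y axis) on each G0 and G1 array for 8 genes (Ldhb by probe set 1434499_a_at, the others by their representative probe set); open symbols are the arrays without spike-ins and bars are mean ± SD of 4 arrays. Idh1, Ldhb and Pdk1 have all G1 points below all G0 points, while the points of Ldha, Pgk1 and Pgam1 lie within 0.31 of 0 in both groups.

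ACGTG is a form of the core letters that HIF-1 binds, and it is the only form searched for here. Stretches of promoter are shown for 2 members of the lower pathway whose groups overlapped, Ldha and Pgk1. They are also shown for the 2 members with non-overlapping groups, Pdk1 and Idh1. They are the 250 bases before the 5′-most RefSeq start of each gene (GRCm38.p6), on chr7:46845554-46845803 (plus strand), chrX:106186850-106187099 (plus strand), chr2:71872974-71873223 (plus strand) and chr1:65186480-65186729 (minus strand). Capitals mark ACGTG on either strand (CACGT when read on the printed strand). Where both overlap as CACGTG they count as 1 stretch.
Ldha: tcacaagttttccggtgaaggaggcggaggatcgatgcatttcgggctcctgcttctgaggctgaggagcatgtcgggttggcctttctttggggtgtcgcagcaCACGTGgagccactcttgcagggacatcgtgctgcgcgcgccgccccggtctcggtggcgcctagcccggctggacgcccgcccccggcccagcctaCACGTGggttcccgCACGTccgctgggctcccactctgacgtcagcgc
Pgk1: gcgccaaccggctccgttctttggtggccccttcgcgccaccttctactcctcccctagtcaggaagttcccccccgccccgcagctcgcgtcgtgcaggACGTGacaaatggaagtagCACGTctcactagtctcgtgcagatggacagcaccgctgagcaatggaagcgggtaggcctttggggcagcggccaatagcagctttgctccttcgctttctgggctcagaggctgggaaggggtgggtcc
Pdk1: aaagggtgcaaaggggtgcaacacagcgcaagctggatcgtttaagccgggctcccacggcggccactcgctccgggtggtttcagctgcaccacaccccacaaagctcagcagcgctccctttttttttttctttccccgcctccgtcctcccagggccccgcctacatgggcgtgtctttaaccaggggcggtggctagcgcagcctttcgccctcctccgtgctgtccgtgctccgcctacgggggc
Idh1: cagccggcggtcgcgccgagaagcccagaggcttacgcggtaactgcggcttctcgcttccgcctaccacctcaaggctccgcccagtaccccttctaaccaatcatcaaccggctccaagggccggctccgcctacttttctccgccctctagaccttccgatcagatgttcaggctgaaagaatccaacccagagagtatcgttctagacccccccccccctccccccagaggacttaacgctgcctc

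The Ldha stretch holds 3 matches to ACGTG and the Pgk1 stretch 2, while those of Pdk1 and Idh1 hold 0. A core that starts with G, such as the gcgtg in the Pdk1 stretch, was not counted here or in the shares below. Of the 39 members with a promoter in the RefSeq table, 11 (28.2%) held at least 1 match, against 16.5% of all 27025 genes with a promoter there. Among the other members with a match were Slc2a1, with 1, and Hk2, with 2. Members with overlapping groups also held 0 matches, among them Aldoa, Tpi1, Cs and Mdh2. The printed genes were picked and do not stand for the members as a set. The median difference was 0.12 for the 11 members with a match (range −0.34 to 1.24) and −0.16 for the 28 without (range −1.11 to 0.70). Of the hypoxia response genes described below, 18 had a promoter there, and 10 of them (55.6%) held a match. The median difference of that list, over its 22 measured genes, was −0.49. A match describes letters in this window and not binding, and its relation to the differences was not tested.

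In the pentose phosphate pathway the 6 measured genes differed by −0.35 to 0.25. Pgd, the second dehydrogenase and a source of NADPH, had the lowest. It read −0.07, 0.07, 0.99 and 0.23 in G0 and −0.52, −0.18, −0.18 and 0.70 in G1, and in each group the array without spike-ins was the highest. The difference was −0.35 (SE 0.33, limma, adjusted p = 0.903), or 1.28-fold lower, and the SE depends on which batch is modelled (limma, adjusted p = 0.438 with the spike-in batch). It was −0.07 without G0 replicate 3 and −0.63 without replicate 4 of either group. All 4 Pgd probe sets were negative, from −0.46 to −0.16. Pgls, which opens the lactone between the dehydrogenases, differed by −0.01 (95% confidence interval −0.54 to 0.53).

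The non-oxidative enzymes, which interconvert sugar phosphates and feed ribose 5-phosphate to nucleotide synthesis, lay on both sides of 0. Rpia (ribose 5-phosphate isomerase) had the highest difference, 0.25 (−0.49 to 0.98), with −0.15, 0.16, −0.85 and −0.10 in G0 and 0.10, 0.33, 0.13 and −0.52 in G1. Here the array without spike-ins was the lowest of each group, and without G0 replicate 3 the difference was 0.0041. Rpe (the epimerase) differed by −0.08 and Taldo1 (transaldolase) by 0.05. The 3 probe sets of Tkt (transketolase) ranged from −0.35 to 0.19.

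Within the citrate cycle, Idh1 had the smallest p of all members. It encodes the cytosolic, NADP-dependent isocitrate dehydrogenase, which supplies NADPH outside the mitochondrion. Its representative probe set read 0.44, 0.34, 0.85 and 0.07 in G0 and −1.05, −0.07, −0.50 and −0.35 in G1. The groups did not overlap. The mean was 0.43 ± 0.32 in G0 and −0.49 ± 0.41 in G1 (SD, n = 4 each), a difference of −0.92 (SE 0.29, 95% confidence interval −1.61 to −0.23), or 1.89-fold lower in G1. It did not pass (limma, adjusted p = 0.511, or 0.235 with the spike-in batch). The second Idh1 probe set differed by −0.72 and its groups overlapped, since G0 replicate 4 read −0.02 and G1 replicates 2 and 4 read 0.00. The representative probe set differed by −1.08 in labelling batch 1, by −0.42 in labelling batch 2, by −1.20 between the 2 arrays without spike-ins and by −0.82 on the 6 arrays with spike-ins. Both probe sets carry the suffix _s_at, given where a probe set matches more than a single transcript. With any single array left out the difference ranged from −1.08 to −0.71. Without G0 replicate 3 it was −0.78, and 0 members then had an unadjusted p under 0.05.

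The mitochondrial isocitrate dehydrogenase genes gave mixed values. Idh2, the mitochondrial NADP-dependent enzyme, differed by −0.19 on its representative probe set and by 0.58 on the other. Of the subunits of the NAD-dependent enzyme, Idh3a differed by −0.12 (95% confidence interval −0.71 to 0.47) and Idh3g by 0.02 (−0.44 to 0.48). Idh3b had the lowest difference of the citrate cycle, −0.95 (SE 0.66, limma, adjusted p = 0.846). It read 0.30, 0.53, −0.20 and 0.14 in G0 and −0.12, 0.12, −2.73 and −0.29 in G1, so the value rests on G1 replicate 3. It was −0.28 without that array, and the other 2 Idh3b probe sets differed by 0.12 and 0.20.

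Ogdh, a subunit of oxoglutarate dehydrogenase, had the highest difference, 1.24 (SE 0.95, limma, adjusted p = 0.869). It read −0.04, −0.54, −3.98 and 0.04 in G0 and 0.05, 0.43, 0.21 and −0.24 in G1. A single array, G0 replicate 3, carried it. Without that array the difference was 0.28, and the other Ogdh probe set differed by −0.10. Dlst, the second subunit of the complex, differed by 0.12 (−0.58 to 0.81). Fh1 (fumarase) was the member with the smallest p among positive differences. It read 0.06, −0.19, −0.44 and −0.09 in G0 and 0.48, 0.28, 0.15 and −0.06 in G1. The G1 array without spike-ins fell inside the G0 range, and the difference was 0.38 (SE 0.22, limma, adjusted p = 0.800, or 0.393 with the spike-in batch).

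Most other genes of the cycle lay near 0. Cs (citrate synthase) differed by 0.20 (95% confidence interval −0.34 to 0.74), with its 3 probe sets between 0.13 and 0.20. Mdh2 (mitochondrial malate dehydrogenase) differed by 0.03 (−0.40 to 0.45). Aco1, the cytosolic aconitase that also acts as an iron-regulatory protein, differed by 0.02 (−0.43 to 0.47). Suclg1 and Suclg2, subunits of succinyl-CoA ligase, differed by −0.22 and 0.27 (SE 0.19 and 0.22). Mdh1, the cytosolic malate dehydrogenase, had 5 probe sets between −0.34 and 0.78, and its representative differed by 0.78 with an interval of −1.28 to 2.84. In all, 15 of the 28 members with more than 1 probe set had probe sets of both signs.

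Other genes of the same routes, from a list of 65 of which 58 were measured, were counted beside the members. Of these, 0 passed in either direction in limma, 2 were higher (3.45%, against 4.33% of all genes) and 1 lower (1.72%, against 3.74%) at an unadjusted p under 0.05, and the median difference was 0.01. Both shares lie below those of all genes in this fit. The 2 higher genes were Prps1, a phosphoribosyl pyrophosphate synthetase that joins the pentose phosphate pathway to nucleotide synthesis (0.54, SE 0.18, limma, adjusted p = 0.553), and Tktl2, a transketolase-like gene (2.18, SE 0.70, limma, adjusted p = 0.509). Prps1 read −0.28, −0.14, −0.31 and −0.23 in G0 and 0.39, 0.25, 0.14 and 0.41 in G1, with no overlap. Of the 58 genes, 2 had non-overlapping groups with G1 higher, against 3.79% of all genes. With G1 lower it was 1 (1.72%, against 3.28%). The lower gene was Shpk, which phosphorylates sedoheptulose (−1.70, SE 0.66, limma, adjusted p = 0.643). The higher share did not lie below that of all genes in 2 other fits. With the spike-in batch 4 of 58 were higher (all genes, 1098 of 18193) and 2 lower (3.45%, against 6.37%). On the 6 arrays with spike-ins 5 of 58 were higher (all genes, 839 of 18193) and 1 lower (all genes, 798). Pkm, the pyruvate kinase gene, differed by 0.04 (SE 0.48). It read 1.34 and 1.43 on the arrays without spike-ins and between −0.18 and 0.12 on the others.

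Regulators and targets of the hypoxia response outside these routes had mostly negative differences, although 0 passed. Of 22 measured genes of 23 listed, 19 had a negative difference, against 10065 of all 18193 genes, with a median of −0.49. At an unadjusted p under 0.05, 7 (31.8%) were lower, against 3.74% of all genes, and 0 higher, against 4.33%. In 5 (22.7%) the groups did not overlap and G1 was lower, against 3.28% of all genes. Those 5 were Hif1a, which encodes the oxygen-regulated subunit of HIF-1 (−0.62, SE 0.25, limma, adjusted p = 0.661), the mitophagy receptor Bnip3 (−0.55), the peptide hormone Adm (−0.97), the mTORC1 inhibitor Ddit4 (−1.10, SE 0.26, limma, adjusted p = 0.280) and the repressor Bhlhe40 (−0.98). Ddit4 read 0.96, 0.68, 0.41 and 0.07 in G0 and −0.36, −0.07, −0.93 and −0.92 in G1. The count of 7 depended on the arrays. It was 10 (45.5%, against 6.37% of all genes) with the spike-in batch. On the 6 arrays with spike-ins it was 2 of 22, where 798 of all 18193 genes were lower. It was 1 without G1 replicate 1, 2 without G0 replicate 1 and 3 without G0 replicate 3. Without G1 replicate 2 it was 5, and 4 without each of the other arrays. The share of all genes was not counted in these single-array fits, so their counts cannot be set against it. Over all alternatives the median stayed between −0.61 and −0.40. The list itself was chosen with earlier results of these data known, so its shares describe these arrays and are no test. Counting it under the alternatives was decided after seeing the data, and the difference between the list and the metabolic genes was not tested.

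**Figure D4:**
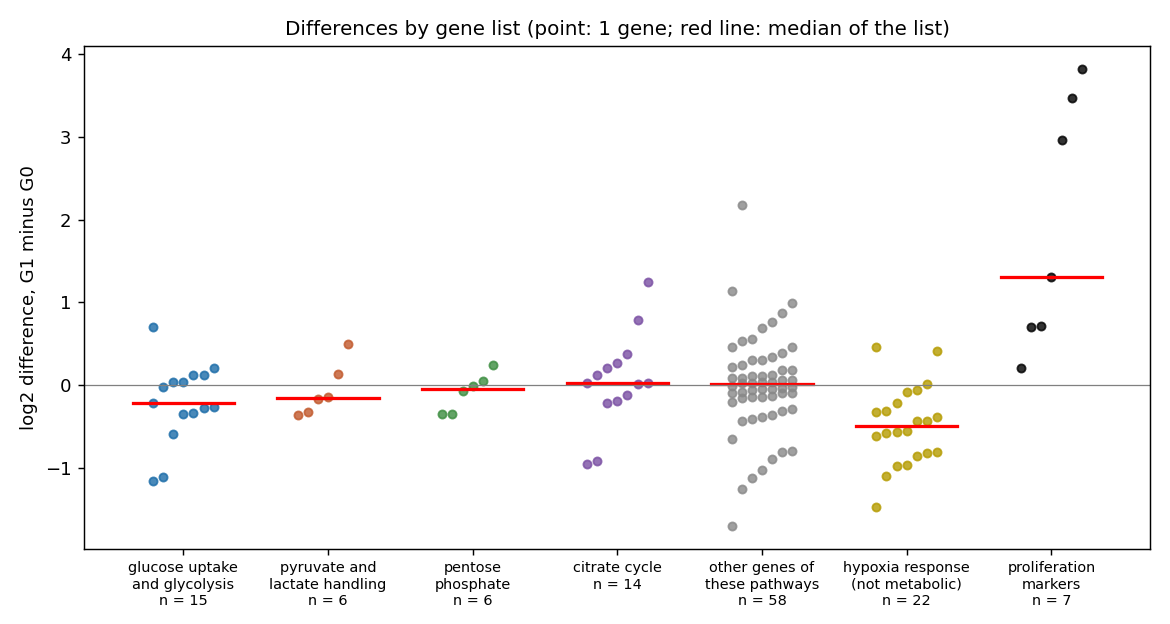
Log2 difference between G1 and G0 (y axis) of each measured gene in 7 lists (x axis), with the list's median as a red line. The 4 metabolic lists and the other genes of these routes have medians between −0.22 and 0.03, the hypoxia response list has −0.49 and the proliferation markers 1.31.

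No marker of another cell type passed in the labelled-batch fit. Of 6 leukocyte, 4 epithelial, 4 endothelial and 6 muscle and fat markers, 0 passed in limma. Only Pecam1, 1 of the 4 endothelial markers (25%, against 4.33% of all genes), was higher at an unadjusted p under 0.05. The median array values of these lists overlapped between G0 and G1. Of 8 fibroblast markers 0 passed, with a median difference of −0.12 (2 positive, 6 negative). At an unadjusted p under 0.05, 1 (12.5%, against 3.74% of all genes), Col3a1, was lower (−0.72, limma, adjusted p = 0.432) and 0 were higher. With the spike-in batch 2 were lower at that level (25%, against 6.37% of all genes), and 0 passed. The part of these markers in the values above was not tested.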

How the data were processed

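Affymetrix mouse arrays of 4 G0 and 4 G1 samples were analysed, grouped by their titles. The deposited values are log2 expression centred by probe set (largest absolute median 5e-07), and the submitters' processing notes name MAS5. The step that took logs, and its base, are not given in the sources used here. Base 2 was assumed, since the values run from −12.4 to 5.58. Depth does not apply, and the number of arrays limits precision.

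Of 45101 probe sets, 64 controls were left out. Of the 45037 tested, 34945 had 1 gene symbol, 932 several and 9160 none. A gene was read by 1 probe set (suffix order _at, _a_at, _s_at, _x_at, then lowest number), with no level filter. The test was limma's (version 3.58.1, R 4.3.3; eBayes with trend, two-sided), labelling batch as covariate, with Benjamini-Hochberg adjustment over all probe sets, a threshold of 0.05 and 5 residual degrees of freedom. The fit was tested on simulated data.

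Values are given by array for members at an unadjusted p under 0.05 in either fit, those whose groups do not overlap, and each sub-pathway's highest and lowest. Others were named as examples of their step after their values were seen. Members and lists were chosen with earlier results of these data known. Alternatives covered the batch, arrays, probe sets, scaling, error model and tied values.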

Additional observations from a re-analysis of the deposited data

Results flagged for a closer look

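In 4 of 32 groups of 4 values tested, 1 array lay far from the other 3. Chance alone puts about 1 in 20 groups there, but that rate does not apply here, since genes were named partly for an extreme difference, Idh3b and Ogdh among them. Idh3b read −2.73 on G1 replicate 3. Ogdh read −3.98 on G0 replicate 3, an array without spike-in signal. The per-array median of glucose uptake and glycolysis was 0.16 on G1 replicate 4, the other array without spike-in signal. The per-array median of the pentose phosphate pathway was 0.21 on G1 replicate 1.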

How the results depend on the processing

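With 20 alternatives, 0 pathway genes passed in limma under any of them. At an unadjusted p under 0.05, 0 to 5 did. The 5 were found with the spike-in batch, 1 higher and 4 lower (9.76%). In that fit 6.04% of all genes were higher and 6.37% lower. The share of all genes at that level was not counted under every alternative. The smallest adjusted p of a named gene was 0.235. Genes past the threshold over all genes numbered 95 in the labelled-batch fit, 183 with the spike-in batch, 31 on the 6 spike-in arrays, 0 with the replicate block (limma) and 0 in labelling batch 1 alone. With a single array left out they numbered 0 to 67. The glycolytic median moved from −0.22 to −0.0719 in labelling batch 1 alone and to −0.0678 when a gene's probe sets were averaged, and ran from −0.229 to −0.0650 with an array left out. That of pyruvate and lactate handling moved from −0.16 to −0.0238 without the arrays lacking spike-ins, and ran from −0.300 to −0.00377 with an array left out. Those of the pentose phosphate pathway and the citrate cycle ran from −0.163 to 0.00815 and from −0.01 to 0.06. Slc16a3 ran from −0.47 (without G0 replicate 2, a reversal) to 1.28 with an array left out. With the probe set of smallest residual spread, Slc2a3 was 0.34, Aldoc −0.17, Idh3b 0.20 and Ogdh −0.10. These 5 of 240 values of named genes changed sign. The replicate numbers matched the samples at most in part. Same-numbered arrays correlated at 0.07, 0.11, −0.14 and −0.14 in their deviations from the group means. The G0 array that correlated best had the same number for G1 replicates 1 and 2 (0.07 and 0.11). For G1 replicates 3 and 4 it was G0 replicate 4 and G0 replicate 3 (0.10 and 0.31). G1 replicate 4 and G0 replicate 3 are the arrays without spike-ins. Whether the titles of G0 replicates 3 and 4 were exchanged was not tested. Under the replicate block 0 pathway genes passed and 2 were at an unadjusted p under 0.05, a level at which the share of all genes was not counted there. Centring removes levels, so probe sets near background could not be recognised. The causes were not tested.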
